A study of Mus musculus with 16 samples.

Results

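The comparison described here is a difference of differences in the left ventricle of the mouse. The change between pressure-overloaded and intact hearts was taken in mice that carry nitric oxide synthase 3 under the alpha-myosin heavy chain promoter (alpha-MHC-NOS3), and the same change in wild-type littermates was subtracted from it. A value below 0 means that the overload response of a gene was less positive, or more negative, in the transgenic hearts than in wild-type hearts, and a value above 0 means the opposite. All 16 of the 16 arrays of the study entered, 4 in each of 4 groups.

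The first group was alpha-MHC-NOS3 mice 10 weeks after transverse aortic constriction (TAC), a band around the aortic arch that raises the pressure against which the left ventricle pumps. The second was control-intact alpha-MHC-NOS3 mice, the third wild-type TAC mice at the same 10 weeks, and the fourth control-intact wild-type mice. Each group held 2 males and 2 females, one animal per array, and the labels call the animals biological repeats matched for age and weight, with no age given. All were of the C57BL/6 N background, to which the transgenic line had been backcrossed for 7 generations. The promoter is active in cardiac muscle cells, and the number of transgenic lines is not given in the labels. Control mice were intact and not sham-operated. Each of the 4 array slides held 1 condition and both genotypes, so load, surgery and slide cannot be told apart in the change with TAC, whereas the difference between genotypes could be taken within each slide. On every slide the transgenic male, transgenic female, wild-type male and wild-type female had the same positions. Position therefore cannot be told apart from genotype and sex. Slide 3, a TAC slide, was scanned on day 2 and the others on day 1.

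Nitric oxide made by NOS3 activates soluble guanylate cyclase, and the cyclic GMP that this enzyme forms activates protein kinase G, which dampens calcium-calcineurin signalling and growth in cardiac muscle cells. Under sustained pressure overload the ventricle typically returns to parts of its fetal gene programme, with natriuretic peptides and skeletal alpha-actin, lays down collagen and other matrix, and lowers genes of fatty acid oxidation. The comparison addresses whether NOS3 in cardiac muscle cells alters that response.

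Signals are given as log2 relative to the 75th percentile of the same array, so that 0 is a probe at that percentile and 1 unit is a factor of 2. The 75th percentile itself lay between 1053 and 1491 intensity units, no array had more than 2 saturated probes, and the number of arrays limits the precision. Between 44.5% and 68.0% of probes were well above background, with a median of 52.5%. Markers of atrial tissue differed widely between arrays of the same group. Myl7, the atrial myosin light chain, had 2.49, -3.27, 5.41 and -2.28 in alpha-MHC-NOS3 TAC hearts and 6.71, 6.41, -4.38 and 6.38 in alpha-MHC-NOS3 control-intact hearts. It had 5.32, -1.95, 5.31 and -2.14 in wild-type TAC hearts and 7.02, 3.78, 4.36 and -3.25 in wild-type control-intact hearts. Both females of each TAC group were low and both males of each TAC group were higher, whereas the low arrays among intact hearts were 1 transgenic male and 1 wild-type female. Summed over the 6 of 8 atrial markers measured, the linear signal ranged over 9.61 to 93.3 times the 75th percentile in alpha-MHC-NOS3 TAC, 16.7 to 202 in alpha-MHC-NOS3 control-intact, 6.55 to 78.1 in wild-type TAC and 17.1 to 242 in wild-type control-intact hearts. Bmp10 and Nr2f1 were not well above background on any array. Results that split by sex below therefore split by atrial signal in the TAC groups as well, where sex and atrial signal cannot be told apart. The difference of differences itself also held an atrial imbalance. Its median over the 6 atrial markers was -1.65, with 1.31 in males and -4.52 in females. Among intact females the mean log2 signal of these markers was 3.67 and 3.45 in alpha-MHC-NOS3, against 1.34 and -2.45 in wild-type hearts. Adipocyte markers were uneven as well. Over the 7 measured, the median difference of differences was 0.88, with 5 above 0 and 2 below. It was 3.09 in males and -0.14 in females, and ran between -0.03 and 1.72 when single arrays were left out.

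**Figure D1:**
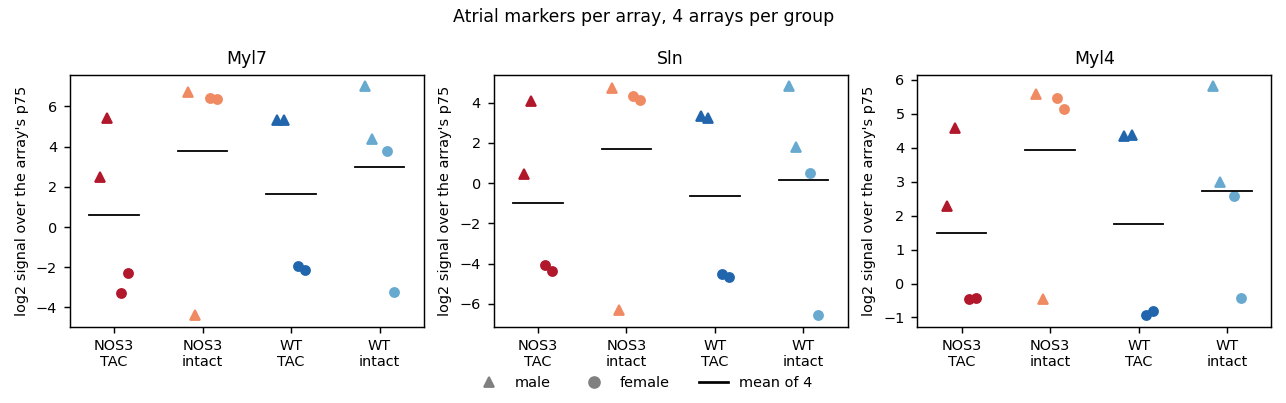
Signal of the atrial markers Myl7, Sln and Myl4 on each array (vertical axis, log2 relative to the array's 75th percentile) in the 4 groups of 4 arrays, with triangles for males, circles for females and lines for group means. All TAC females sit low, with Myl7 between -3.27 and -1.95, and all TAC males sit higher, with Myl7 between 2.49 and 5.41.

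No gene passed for the difference of differences at a Benjamini-Hochberg adjusted p of 0.05 in limma, 0 of 15667 (0%), and the smallest adjusted p was 0.242. At an unadjusted p of 0.05, 1165 genes (7.44%) passed, against 783 that make up 5% of the genes tested. Of these, 853 (5.44% of all) were above 0 and 312 (1.99%) below. The median over all genes was 0.07 and 61.3% of genes were above 0, so values of gene groups are read here against that background. The median standard error was 0.186 for the difference of differences and 0.132 for the TAC change within 1 genotype.

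Within each genotype the TAC change was called far more often. In alpha-MHC-NOS3 hearts 1855 genes (11.8%) passed, 1015 higher (6.48%) and 840 lower (5.36%). In wild-type hearts 4460 genes (28.5%) passed, 1707 higher (10.9%) and 2753 lower (17.6%). That these counts differ does not show that single genes responded differently, which is what the difference of differences tests. Counts of calls in the gene lists below are read against these shares, as wild-type hearts had more calls over all genes. Between genotypes, 44 genes (0.281%) differed in TAC hearts, 40 higher (0.255%) and 4 lower (0.0255%) in alpha-MHC-NOS3. In control-intact hearts 65 (0.415%) differed, 52 higher (0.332%) and 13 lower (0.083%) in alpha-MHC-NOS3.

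Nos3 itself had the third of the smallest p-values. Its signal was 6.95, 7.78, 7.28 and 7.55 in alpha-MHC-NOS3 TAC hearts and 7.63, 8.03, 7.92 and 7.88 in alpha-MHC-NOS3 control-intact hearts, against 1.67, 1.73, 1.51 and 1.85 in wild-type TAC hearts and 0.96, 1.45, 1.29 and 1.40 in wild-type control-intact hearts. Every transgenic array stood far above every wild-type array, as the labels imply, with a genotype difference of 51.9-fold under TAC (limma adjusted p = 5.14e-12) and 96.3-fold in intact hearts (adjusted p = 7.71e-13). With TAC, Nos3 fell by 0.48 in alpha-MHC-NOS3 hearts (limma adjusted p = 0.0207) and rose by 0.41 in wild-type hearts (adjusted p = 0.0196). The difference of differences was -0.89 ± 0.165 (SE, n = 4 arrays per group, limma adjusted p = 0.628). Within slide and sex, the genotype difference was 5.27, 6.05, 5.77 and 5.70 on the TAC slides and 6.67, 6.58, 6.63 and 6.48 on the control-intact slides, which do not overlap. Over all genes, the TAC differences lay wholly below the intact ones for 276 (1.76%) and wholly above for 815 (5.2%). The single Nos3 probe on the array was used. The labels do not give the species of the transgene, and whether the probe reads transgene and endogenous transcript alike is not known. The TAC change of Nos3 in alpha-MHC-NOS3 hearts may therefore be mostly the transgene's, whereas that in wild-type hearts is the endogenous gene's. The value of -0.89 is thus not read as a differing overload response of the same transcript.

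The 10 genes below 0 and the 10 above 0 with the smallest p are described next. None passed the adjusted threshold, and they were chosen for that p. Of the 10 below 0, 8 rose with TAC in wild-type hearts and 4 fell with TAC in alpha-MHC-NOS3 hearts, and 6 were higher in alpha-MHC-NOS3 than in wild-type among intact hearts, against 1, Nos3, among TAC hearts. The shares over all genes were 10.9%, 5.36%, 0.332% and 0.255%. A negative difference of differences was what chose the 10, so these counts and a smaller or opposite transgenic step are no finding about them.

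Ier5, an immediate early response gene, had the smallest p of all genes. It measured 4.76, 5.06, 4.92 and 5.17 in alpha-MHC-NOS3 TAC hearts and 5.06, 5.68, 5.44 and 5.69 in alpha-MHC-NOS3 control-intact hearts, against 5.43, 5.43, 5.56 and 5.45 in wild-type TAC hearts and 4.70, 4.81, 4.88 and 5.13 in wild-type control-intact hearts. All wild-type TAC arrays lay above all wild-type intact arrays, while the transgenic groups lay in the opposite order with some overlap. It fell by 0.49 in alpha-MHC-NOS3 hearts (limma adjusted p = 0.0182) and rose by 0.59 in wild-type hearts (adjusted p = 0.00312), giving -1.08 ± 0.165 (SE, n = 4 per group, limma adjusted p = 0.242). Without replicate 1 of the alpha-MHC-NOS3 control-intact group its adjusted p was 0.0356, the only call of a difference of differences when single arrays were left out. Mafg, a small MAF protein that pairs with NRF2 at antioxidant response elements, followed a similar course. It was 0.42, 0.59, 0.50 and 0.78 in alpha-MHC-NOS3 TAC and 0.60, 1.06, 0.54 and 1.06 in alpha-MHC-NOS3 control-intact hearts, against 0.44, 0.67, 0.37 and 0.75 in wild-type TAC and 0.08, 0.16, 0.18 and 0.40 in wild-type control-intact hearts. Its wild-type intact arrays overlapped with no group but the wild-type TAC arrays, and its difference of differences was -0.60 ± 0.12 (SE, limma adjusted p = 0.652).

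Hmox1, the inducible heme oxygenase, measured 0.67, 0.94, 0.76 and 0.87 in alpha-MHC-NOS3 TAC and 0.91, 1.59, 1.30 and 1.55 in alpha-MHC-NOS3 control-intact hearts, against 0.95, 0.71, 0.64 and 1.1 in wild-type TAC and 0.57, 0.45, 0.63 and 0.86 in wild-type control-intact hearts. The transgenic intact hearts had the highest mean, and their lowest array overlapped with both TAC groups. It fell by 0.53 with TAC in alpha-MHC-NOS3 hearts (limma adjusted p = 0.0217), differed by 0.22 in wild-type hearts (adjusted p = 0.229) and gave -0.75 ± 0.185 (SE, adjusted p = 0.652). Among the macrophage genes of the 10, Msr1, a scavenger receptor, had -2.09, -1.99, -1.77 and -1.93 in alpha-MHC-NOS3 TAC and -1.81, -1.70, -1.62 and -1.68 in alpha-MHC-NOS3 control-intact hearts, against -2.02, -2.34, -2.16 and -2.08 in wild-type TAC and -2.42, -2.46, -2.45 and -2.51 in wild-type control-intact hearts. Its 4 wild-type intact arrays lay below all other arrays, and the difference of differences was -0.55 ± 0.121 (SE, limma adjusted p = 0.652). Fcgr2b, the inhibitory Fc gamma receptor, gave -0.72 ± 0.163 and Lilrb4a, an inhibitory leukocyte receptor, -1.0 ± 0.238, both with a limma adjusted p of 0.652. Rab7b, a small GTPase of late endosomes, gave -0.62 and LOC622592 -0.35. The remaining transcript of the 10 was not well above background on any wild-type array, so its size is not read.

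**Figure D2:**
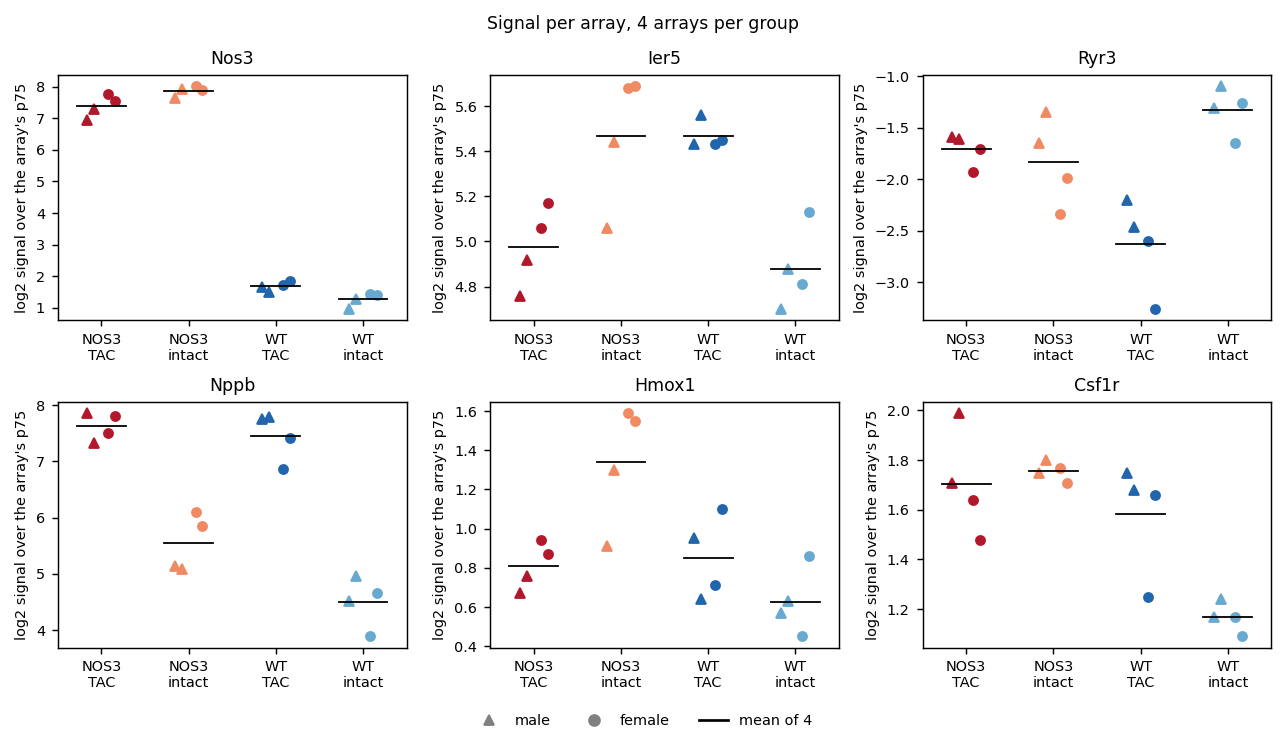
Signal on each array (vertical axis, log2 relative to the array's 75th percentile) for Nos3, Ier5, Ryr3, Nppb, Hmox1 and Csf1r in the 4 groups of 4 arrays, with triangles for males, circles for females and lines for group means. Ier5 stands at 4.76 to 5.17 in alpha-MHC-NOS3 TAC and 5.06 to 5.69 in alpha-MHC-NOS3 control-intact hearts, against 5.43 to 5.56 in wild-type TAC and 4.70 to 5.13 in wild-type control-intact hearts.

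Of the 10 genes above 0, 8 fell with TAC in wild-type hearts, 2 rose with TAC in alpha-MHC-NOS3 hearts, and 3 were higher in alpha-MHC-NOS3 than in wild-type TAC hearts. The shares over all genes were 17.6%, 6.48% and 0.255%. These genes were chosen for a positive difference of differences, which favours such calls, so the counts are no finding about them. Ryr3, a ryanodine receptor that releases calcium from internal stores and is a minor isoform in heart, measured -1.59, -1.93, -1.61 and -1.70 in alpha-MHC-NOS3 TAC and -1.65, -2.34, -1.35 and -1.99 in alpha-MHC-NOS3 control-intact hearts. In wild-type hearts it measured -2.20, -2.60, -2.46 and -3.26 with TAC and -1.31, -1.65, -1.09 and -1.26 when intact. The wild-type groups did not overlap and the transgenic groups did. Ryr3 fell by 1.30 in wild-type hearts (limma adjusted p = 0.000265) and differed by 0.13 in alpha-MHC-NOS3 hearts (adjusted p = 0.656), a difference of differences of 1.43 ± 0.23 (SE, n = 4 per group, adjusted p = 0.242). Under TAC it was higher in alpha-MHC-NOS3 than in wild-type hearts by 0.92 (limma adjusted p = 0.0328).

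Eaf2, a partner of the ELL elongation factors, was one of the 2 genes that rose in alpha-MHC-NOS3 hearts. It measured -0.72, -0.67, -0.90 and -0.53 in alpha-MHC-NOS3 TAC and -1.30, -1.20, -1.15 and -1.06 in alpha-MHC-NOS3 control-intact hearts, against -1.28, -1.06, -1.12 and -1.06 in wild-type TAC and -1.08, -1.17, -1.10 and -1.09 in wild-type control-intact hearts. The transgenic TAC arrays lay above all others, and the difference of differences was 0.49 ± 0.11 (SE, limma adjusted p = 0.652). LOC436154, the other, rose by 0.87 in alpha-MHC-NOS3 hearts (limma adjusted p = 0.000702) against a difference of 0.12 in wild-type hearts (adjusted p = 0.445). Icam4, an adhesion molecule of the immunoglobulin family, gave 0.93 ± 0.201, Tstd3 0.49 ± 0.105, 2810039B14Rik 0.54 and LTO1 0.42. With normexp background correction the value of 2810039B14Rik was -0.02. Cd247, Clec12b and Brinp1 were not well above background on any wild-type TAC array, and Clec12b and Brinp1 were also below it in a whole transgenic group, so their sizes are not read.

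**Figure D3:**
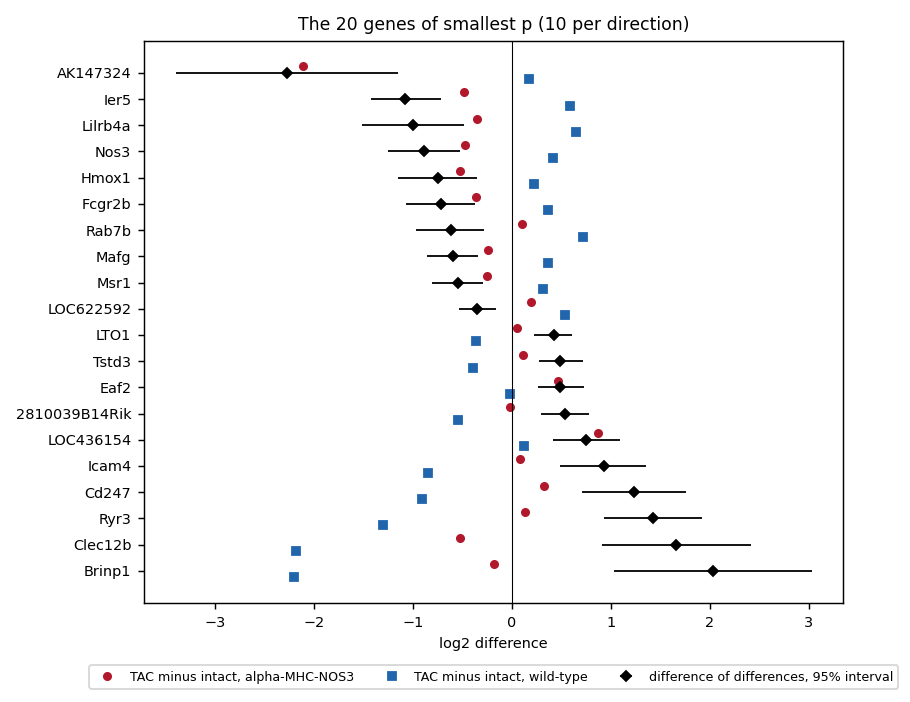
The 10 genes with the smallest p below 0 and the 10 above 0: black diamonds with bars give the difference of differences with its 95% interval, red circles the TAC minus control-intact difference in alpha-MHC-NOS3 and blue squares that in wild-type hearts (horizontal axis, log2). The circles of most genes lie nearer 0 than the squares, or on the other side of 0, as for Ier5 at -0.49 in alpha-MHC-NOS3 and 0.59 in wild-type hearts. The genes were chosen for their difference of differences, which favours such an order, so it is no finding about them.

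Genes that respond to load were then taken as a set. They were chosen on the mean TAC effect of both genotypes, a separate contrast of the same 16 arrays, for which 5825 genes passed (37.2%), 2552 higher (16.3%) and 3273 lower (20.9%). The 350 that were higher by over 2-fold had a median TAC difference of 1.21 in alpha-MHC-NOS3 and 1.61 in wild-type hearts, and a median difference of differences of -0.41. Of these, 257 were below 0 and 93 above, against 38.7% below 0 among all genes. The 338 that were lower by over 2-fold had medians of -1.11 in alpha-MHC-NOS3 and -1.48 in wild-type hearts, and of 0.37 for the difference of differences, with 62 below 0 and 276 above. At an unadjusted p of 0.05, 26 of the 350 were below 0 and 4 above, and 37 of the 338 were above 0 and 3 below, against 1.99% of all genes below and 5.44% above. The median of the 350 ranged over -0.58 to -0.20 and that of the 338 over 0.21 to 0.53 when single arrays were left out, in both cases nearest 0 without wild-type TAC replicate 4. In males the medians were -0.11 for the 350 and 0.23 for the 338, and in females -0.57 and 0.56.

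For the 350 higher genes the median difference of alpha-MHC-NOS3 from wild-type was -0.20 in TAC hearts and 0.19 in control-intact hearts, and for the 338 lower genes it was 0.12 in TAC and -0.26 in intact hearts. By array, the median of the 350 relative to the wild-type intact mean was 1.89, 0.96, 1.57 and 1.34 in alpha-MHC-NOS3 TAC and 0.43, 0.24, 0.07 and 0.15 in alpha-MHC-NOS3 control-intact hearts. In wild-type hearts it was 1.72, 1.00, 1.73 and 2.01 with TAC and 0.13, -0.03, 0.03 and -0.11 when intact. The TAC groups of the genotypes overlapped. Within slide and sex, 1 TAC pair had the transgenic array higher, at 1.89 against 1.72, and the widest gap was in the pair at 1.34 against 2.01. With normexp background correction the median difference of differences was -0.25 for the 350 and 0.04 for the 338, of which 187 stayed above 0, so the value for the lower genes depends on how background was removed. With the atrial marker mean as a covariate, an alternative chosen after the data were seen, the medians were -0.33 and 0.37.

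Genes with the largest mean TAC effects responded strongly in both genotypes. Pfkfb1, which makes a regulator of glycolysis, measured -1.40, -0.22, -0.83 and -1.12 in alpha-MHC-NOS3 TAC and 1.90, 0.38, 2.49 and 1.58 in alpha-MHC-NOS3 control-intact hearts, against -0.71, -0.06, -0.96 and -1.39 in wild-type TAC and 2.43, 2.26, 2.41 and 2.98 in wild-type control-intact hearts. In both genotypes all TAC arrays lay below all intact arrays, and the intact groups overlapped. Pfkfb1 fell by 2.48 in alpha-MHC-NOS3 (limma adjusted p = 0.00289) and by 3.3 in wild-type hearts (adjusted p = 0.000248), and gave 0.82 ± 0.577 (SE, adjusted p = 0.749). Acot1, an acyl-CoA thioesterase, gave 0.52 and Penk, proenkephalin, 0.37. Aqp8, a water channel, measured 3.77, 3.09, 4.26 and 3.75 in alpha-MHC-NOS3 TAC and 0.78, 0.60, 0.81 and 0.10 in alpha-MHC-NOS3 control-intact hearts, against 3.24, 2.47, 3.51 and 3.07 in wild-type TAC and 0.40, -0.85, 0.65 and -0.71 in wild-type control-intact hearts. It rose by 3.14 in alpha-MHC-NOS3 (limma adjusted p = 1.47e-05) and by 3.20 in wild-type hearts (adjusted p = 2.32e-05), with -0.06 ± 0.306 between them (SE, adjusted p = 0.968). Gdf15, a stress-induced cytokine, gave -0.30 ± 0.821.

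The hypertrophic fetal programme was raised by load in both genotypes. Of its 26 measured genes, 16 rose in alpha-MHC-NOS3 hearts (all genes: 6.48%) and 21 in wild-type hearts (all genes: 10.9%), and none fell. The median TAC difference was 1.00 in alpha-MHC-NOS3 and 1.04 in wild-type hearts. The median difference of differences was -0.25, with 18 genes below 0 and 8 above, and none passed even an unadjusted p of 0.05. Leaving out wild-type TAC replicate 4 brought this median to -0.08. Nppb, which encodes brain natriuretic peptide, was the member with the smallest p. It measured 7.86, 7.50, 7.33 and 7.81 in alpha-MHC-NOS3 TAC and 5.14, 6.10, 5.09 and 5.85 in alpha-MHC-NOS3 control-intact hearts, against 7.75, 6.87, 7.78 and 7.41 in wild-type TAC and 4.52, 3.89, 4.96 and 4.66 in wild-type control-intact hearts. The TAC arrays of the genotypes overlapped, and the transgenic intact arrays all lay above the wild-type intact arrays. Nppb rose by 2.08 in alpha-MHC-NOS3 (limma adjusted p = 0.0011) and by 2.94 in wild-type hearts (adjusted p = 7.83e-05), and the difference of differences was -0.87 ± 0.408 (SE, limma adjusted p = 0.679).

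Nppa, for atrial natriuretic peptide, had 8.49, 8.46, 8.33 and 8.57 in alpha-MHC-NOS3 TAC and 6.59, 7.21, 5.87 and 7.16 in alpha-MHC-NOS3 control-intact hearts, against 8.41, 7.78, 8.62 and 8.31 in wild-type TAC and 7.50, 5.43, 5.80 and 6.12 in wild-type control-intact hearts. The intact groups were widely spread, and the difference of differences was -0.31 ± 0.558 (SE, limma adjusted p = 0.895). Acta1, skeletal alpha-actin, rose by 2.56 in alpha-MHC-NOS3 and 2.45 in wild-type hearts and gave 0.11 ± 0.469 (SE, limma adjusted p = 0.962), a value whose sign turned when single arrays were left out. Myh7, the fetal and slow myosin heavy chain, differed by 0.62 in alpha-MHC-NOS3 (adjusted p = 0.0817), rose by 0.88 in wild-type hearts (adjusted p = 0.00971) and gave -0.26 ± 0.307 (SE, limma adjusted p = 0.84). Nmrk2, a nicotinamide riboside kinase of muscle, rose by 3.52 in alpha-MHC-NOS3 and 3.26 in wild-type hearts, Xirp2, an actin-binding protein of the intercalated disc, by 1.02 and 1.00, and Enah, an actin regulator, by 1.23 in each. For Myh6, the adult myosin heavy chain, Atp2a2, the calcium pump of the sarcoplasmic reticulum, and Pln, its inhibitor phospholamban, the values were -0.07, 0.12 and 0.29. Myh6 changed sign when some arrays were left out, at -0.17 to 0.02 without single arrays, and was -3.78 with quantile normalization. The brightest probe was chosen anew for each scaling, and whether another probe stood for Myh6 there was not tested. Atp2a2 changed sign under other scalings. Acta2, smooth muscle actin, had the highest value of the list at 0.42, and the lowest, Mybphl at -1.95, is itself high in atrium.

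Genes of the extracellular matrix showed one of the larger gaps between genotypes, with values below 0 for nearly the whole list. Of 42 measured matrix proteins, crosslinkers and proteases, 14 rose and 2 fell with TAC in alpha-MHC-NOS3 hearts (all genes: 6.48% and 5.36%). In wild-type hearts 27 rose and 2 fell (all genes: 10.9% and 17.6%). The median TAC difference was 0.77 in alpha-MHC-NOS3 and 1.41 in wild-type hearts, and the median difference of differences was -0.53, with 39 genes below 0 and 3 above. Of the 42, 3 passed an unadjusted p of 0.05, all below 0, against 1.99% of all genes. Tnc, tenascin-C, a matrix glycoprotein of wounds, measured -2.08, -3.56, -2.72 and -3.86 in alpha-MHC-NOS3 TAC and -3.53, -4.05, -3.36 and -4.57 in alpha-MHC-NOS3 control-intact hearts. It measured -2.55, -2.18, -2.45 and -0.79 in wild-type TAC and -3.77, -3.94, -4.71 and -5.15 in wild-type control-intact hearts. The wild-type groups were separate, the transgenic groups overlapped, and only 2 of 4 arrays of each intact group were well above background. The TAC difference was 0.82 in alpha-MHC-NOS3 hearts (limma adjusted p = 0.269), Tnc rose by 2.40 in wild-type hearts (adjusted p = 0.00276), and the difference of differences was -1.58 ± 0.656 (SE, adjusted p = 0.664).

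Fn1, fibronectin, was 0.81, 0.30, 0.75 and 0.16 in alpha-MHC-NOS3 TAC and 0.39, 0.23, -0.09 and 0.13 in alpha-MHC-NOS3 control-intact hearts, against 1.28, 0.45, 0.72 and 1.37 in wild-type TAC and -0.05, 0.19, -0.23 and -0.10 in wild-type control-intact hearts. Its difference of differences was -0.66 ± 0.295 (SE, limma adjusted p = 0.665). Postn, periostin, a product of activated fibroblasts, had 5.52, 3.14, 4.63 and 4.15 in alpha-MHC-NOS3 TAC and 3.19, 2.95, 2.06 and 2.54 in alpha-MHC-NOS3 control-intact hearts, against 5.30, 3.50, 4.97 and 5.62 in wild-type TAC and 3.08, 2.63, 2.25 and 1.58 in wild-type control-intact hearts. It rose by 1.67 in alpha-MHC-NOS3 (limma adjusted p = 0.0402) and by 2.46 in wild-type hearts (adjusted p = 0.00298), and -0.78 ± 0.681 was left between them (SE, adjusted p = 0.786). Lox, lysyl oxidase, which crosslinks collagen, was not well above background on any wild-type intact array. Ccn2, a matricellular growth factor, gave -0.56 ± 0.533, the latent TGF-beta binding protein Ltbp2 -1.09, and the protease inhibitor Timp1 -1.23. The exceptions above 0 were Ogn at 0.46, Dcn at 0.13 and Lum at 0.07, all small leucine-rich proteoglycans.

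The collagens followed the same direction. Of 19 measured, 5 rose in alpha-MHC-NOS3 (all genes: 6.48%) and 13 in wild-type hearts (all genes: 10.9%). The median TAC difference was 0.48 in alpha-MHC-NOS3 and 0.80 in wild-type hearts. The median difference of differences was -0.39, with 18 below 0 and 1, Col18a1, above. None passed an unadjusted p of 0.05. Col1a1, the main chain of type I collagen, had 5.02, 4.41, 5.28 and 4.68 in alpha-MHC-NOS3 TAC and 4.57, 4.21, 3.74 and 3.71 in alpha-MHC-NOS3 control-intact hearts, against 5.49, 4.45, 5.15 and 5.52 in wild-type TAC and 4.44, 3.78, 3.90 and 3.20 in wild-type control-intact hearts. The TAC groups overlapped, and the difference of differences was -0.53 ± 0.36 (SE, limma adjusted p = 0.74). Col3a1 gave -0.44, the basement membrane collagen Col4a1 -0.58 and Col5a2 -0.73. Over all alternatives, those without single arrays included, Col3a1 ran between -1.1 and -0.15.

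These gaps were larger among the female arrays. The median difference of differences of the matrix list was -0.10 in males and -0.80 in females, and that of the collagens 0.03 in males and -0.70 in females. By array, the matrix median relative to the wild-type intact mean was 1.53 and 1.18 in alpha-MHC-NOS3 TAC males and 0.42 and 0.58 in alpha-MHC-NOS3 TAC females, against 1.74 and 1.51 in wild-type TAC males and 0.51 and 1.67 in wild-type TAC females. Both transgenic TAC females and 1 of the 2 wild-type TAC females were low. Leaving out single arrays moved the matrix median between -0.82 and -0.35 and the collagen median between -0.50 and -0.15, the last without wild-type TAC replicate 4, a female. With the atrial covariate the medians were -0.37 and -0.23. In whole tissue, fewer cells of a type and less RNA per cell cannot be told apart. The summed signal of the fibroblast markers was 226 to 318 in alpha-MHC-NOS3 TAC, 190 to 271 in alpha-MHC-NOS3 control-intact, 241 to 343 in wild-type TAC and 182 to 282 in wild-type control-intact hearts, with overlap of all groups.

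Cell cycle genes had the lowest median difference of differences of the lists made by function. Of 34 measured, 3 rose in alpha-MHC-NOS3 hearts (all genes: 6.48%) and 24 in wild-type hearts (all genes: 10.9%). The median TAC difference was 0.79 in alpha-MHC-NOS3 and 1.67 in wild-type hearts. The median difference of differences was -0.78, with 29 below 0 and 5 above. At an unadjusted p of 0.05, 4 were below 0 and 1 above, against 1.99% and 5.44% of all genes. Mki67, the gene of the proliferation marker Ki-67, measured 1.23, -0.27, 1.34 and 0.19 in alpha-MHC-NOS3 TAC and 0.33, -0.13, 0.05 and -0.28 in alpha-MHC-NOS3 control-intact hearts, against 1.47, 0.66, 1.58 and 2.55 in wild-type TAC and -0.38, -0.49, -0.33 and -0.73 in wild-type control-intact hearts. All wild-type TAC arrays lay above all intact arrays, whereas the female transgenic TAC arrays lay within the transgenic intact range. The TAC difference was 0.63 in alpha-MHC-NOS3 (limma adjusted p = 0.258), Mki67 rose by 2.05 in wild-type hearts (adjusted p = 0.00128), and the difference of differences was -1.42 ± 0.489 (SE, adjusted p = 0.652). The values ran between Bub1b of the spindle checkpoint at -1.45 and Cenpa, the centromeric histone, at 0.52. Others were Tpx2 of spindle assembly at -1.33, Ccnb2, a mitotic cyclin, at -1.31 and Cenpe, a kinetochore motor, at -1.07. Ccnd1, a G1 cyclin, was at -0.06, Pcna, the clamp of DNA replication, at -0.07 and Mcm2, of the replicative helicase, at 0.08.

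By array the cell cycle median relative to the wild-type intact mean was 2.25, 0.17, 1.52 and 0.54 in alpha-MHC-NOS3 TAC and 0.58, 0.21, 0.25 and 0.14 in alpha-MHC-NOS3 control-intact hearts. It was 1.73, 0.89, 1.75 and 2.48 in wild-type TAC and 0.00, -0.04, 0.07 and -0.01 in wild-type control-intact hearts. The difference of differences was 0.08 in males and -1.33 in females. Without wild-type TAC replicate 4, a female, the median over the list was -0.31, and with the atrial covariate it was -0.73. Under normexp background correction it was -0.39. Both transgenic TAC females were low, and 1 wild-type TAC female was the highest array of all.

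**Figure D4:**
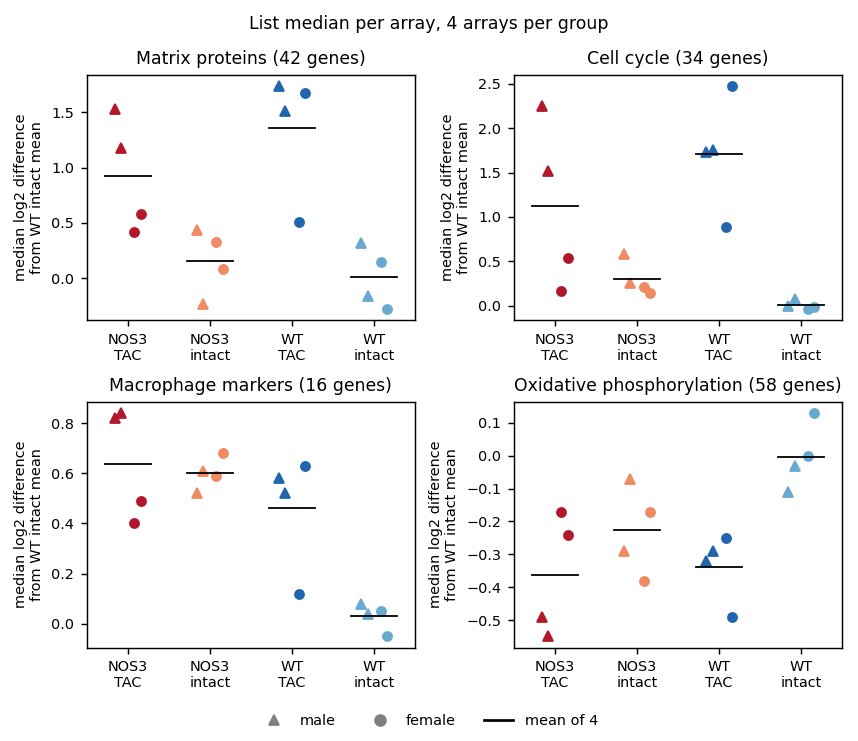
Median over the genes of a list on each array, as log2 difference from the wild-type control-intact mean of each gene (vertical axis), for matrix proteins (42 genes), cell cycle (34), macrophage markers (16) and oxidative phosphorylation (58), with triangles for males, circles for females and lines for the mean of 4 arrays. Macrophage markers stand at 0.52 to 0.68 in alpha-MHC-NOS3 control-intact hearts, against -0.05 to 0.08 in wild-type control-intact hearts.

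The median of the macrophage markers was higher on every intact alpha-MHC-NOS3 array than on any intact wild-type array. Under TAC it was higher in transgenic males and lower in transgenic females than in intact transgenic hearts of the same sex. Of 16 measured markers, 2 rose and 1 fell with TAC in alpha-MHC-NOS3 hearts (all genes: 6.48% and 5.36%). In wild-type hearts 8 rose and none fell (all genes: 10.9% and 17.6%). The median TAC difference was -0.04 in alpha-MHC-NOS3 and 0.43 in wild-type hearts, and the median difference of differences was -0.49, with 15 below 0 and 1, Aif1, above. It was -0.21 in males and -0.64 in females, and 4 members passed an unadjusted p of 0.05, all below 0, against 1.99% of all genes. By array the marker median relative to the wild-type intact mean was 0.82, 0.40, 0.84 and 0.49 in alpha-MHC-NOS3 TAC and 0.52, 0.59, 0.61 and 0.68 in alpha-MHC-NOS3 control-intact hearts, against 0.58, 0.12, 0.52 and 0.63 in wild-type TAC and 0.08, 0.05, 0.04 and -0.05 in wild-type control-intact hearts. Only the wild-type intact hearts stood apart, below every other array. The summed marker signal was 113 to 131 in alpha-MHC-NOS3 TAC, 99.9 to 121 in alpha-MHC-NOS3 control-intact, 93.8 to 120 in wild-type TAC and 71.5 to 87.2 in wild-type control-intact hearts, and Ly6c2 was not well above background on any array.

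Csf1r, the receptor for colony stimulating factor 1 on which macrophages depend, had 1.71, 1.64, 1.99 and 1.48 in alpha-MHC-NOS3 TAC and 1.75, 1.77, 1.80 and 1.71 in alpha-MHC-NOS3 control-intact hearts, against 1.75, 1.25, 1.68 and 1.66 in wild-type TAC and 1.17, 1.17, 1.24 and 1.09 in wild-type control-intact hearts. The 4 wild-type intact arrays were below all others. The TAC difference was -0.05 in alpha-MHC-NOS3 (limma adjusted p = 0.801), Csf1r rose by 0.41 in wild-type hearts (adjusted p = 0.00854), and among intact hearts it was higher in alpha-MHC-NOS3 by 0.59 (adjusted p = 0.0254). Its difference of differences was -0.46 ± 0.14 (SE, limma adjusted p = 0.652), and 1 of its 2 other probes had the opposite sign. C1qc, a chain of complement C1q, had 3.25, 2.79, 3.17 and 2.85 in alpha-MHC-NOS3 TAC and 2.92, 3.17, 2.90 and 3.16 in alpha-MHC-NOS3 control-intact hearts, against 3.10, 2.54, 2.99 and 3.02 in wild-type TAC and 2.40, 2.46, 2.34 and 2.33 in wild-type control-intact hearts. Again only the wild-type intact arrays stood below the rest, and the value was -0.55 ± 0.187 (SE, limma adjusted p = 0.652). Cd68, a lysosomal protein of macrophages, gave -0.56 and Lyz2, lysozyme, -0.35.

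Antigen presentation genes had a median of -0.30, with 14 of 15 below 0, Psmb10 being the exception. The median was -0.15 without wild-type control-intact replicate 1 and -0.49 without wild-type TAC replicate 2. The median TAC difference was 0.06 in alpha-MHC-NOS3 and 0.17 in wild-type hearts, and the median genotype difference was 0.08 in TAC and 0.50 in control-intact hearts. One member rose and 1 fell with TAC in alpha-MHC-NOS3 (all genes: 6.48% and 5.36%), and 4 rose in wild-type hearts (all genes: 10.9%). H2-Eb1, a class II chain, was lowest at -0.70 ± 0.261 (SE, limma adjusted p = 0.652), and the class I genes H2-D1 and H2-K1 were at -0.10 and -0.05. Of 30 cytokines and chemokines, 2 rose and 4 fell in alpha-MHC-NOS3 and 8 rose and 4 fell in wild-type hearts (all genes: 10.9% and 17.6%). Their median difference of differences was -0.18, with 21 below 0, and 5 were below 0 at an unadjusted p of 0.05, against 1.99% of all genes, and none above. The median was -0.04 without wild-type TAC replicate 4 and -0.34 without wild-type TAC replicate 2. Osmr, a receptor subunit for oncostatin M, measured 1.18, 1.33, 1.01 and 1.37 in alpha-MHC-NOS3 TAC and 1.11, 1.28, 1.22 and 1.47 in alpha-MHC-NOS3 control-intact hearts, against 2.35, 1.48, 1.54 and 2.09 in wild-type TAC and 1.23, 1.29, 1.00 and 1.30 in wild-type control-intact hearts. The 4 wild-type TAC arrays lay above all others, and the difference of differences was -0.71 ± 0.238 (SE, limma adjusted p = 0.652). Interferon response genes had a median of -0.04, which was 0.10 when wild-type TAC replicate 4 was left out.

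The antioxidant and NRF2 target genes, as a list, did not share one direction. Of 51 measured, none rose and 9 fell with TAC in alpha-MHC-NOS3 hearts (all genes: 6.48% and 5.36%). In wild-type hearts 5 rose and 16 fell (all genes: 10.9% and 17.6%). The median difference of differences was -0.07 with 30 below 0 and 21 above. Among the 51, 6 were higher in alpha-MHC-NOS3 than in wild-type control-intact hearts (all genes: 0.332%) and 4 in TAC hearts (all genes: 0.255%), none lower. Srxn1, sulfiredoxin, which repairs oxidised peroxiredoxins, measured 2.38, 2.62, 2.47 and 3.19 in alpha-MHC-NOS3 TAC and 2.86, 3.08, 2.48 and 3.08 in alpha-MHC-NOS3 control-intact hearts, against 2.31, 2.52, 2.11 and 2.49 in wild-type TAC and 1.90, 1.97, 1.84 and 1.80 in wild-type control-intact hearts. Its wild-type intact arrays lay below all others. Srxn1 was higher in alpha-MHC-NOS3 by 1.00 among intact hearts (limma adjusted p = 0.00396), rose by 0.48 with TAC in wild-type hearts (adjusted p = 0.0169) and gave -0.69 ± 0.187 (SE, adjusted p = 0.652). Gclm, the modifier subunit of the enzyme that limits glutathione synthesis, measured -1.84, -1.53, -2.01 and -1.36 in alpha-MHC-NOS3 TAC and -1.79, -0.94, -1.57 and -1.31 in alpha-MHC-NOS3 control-intact hearts, against -1.87, -2.14, -2.18 and -2.32 in wild-type TAC and -2.73, -2.08, -2.70 and -2.21 in wild-type control-intact hearts. It was higher in alpha-MHC-NOS3 by 1.03 among intact hearts (limma adjusted p = 0.0134) and gave -0.59 ± 0.226 (SE, adjusted p = 0.664).

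The RefSeq promoter windows of Mafg, Srxn1 and Gclm are shown because these genes shared the higher level in intact transgenic hearts and the negative difference of differences, and because NRF2 and small MAF proteins bind the antioxidant response element. Each window runs from 250 bases before to 50 bases after the start of the gene in GRCm38.p6, at chr11:120633498-120633797 on the minus strand for Mafg, chr2:152105274-152105573 on the plus strand for Srxn1 and chr3:122245307-122245606 on the plus strand for Gclm. Capitals mark the element's core, TGACNNNGC or TGAGNNNGC, on either strand.
Mafg: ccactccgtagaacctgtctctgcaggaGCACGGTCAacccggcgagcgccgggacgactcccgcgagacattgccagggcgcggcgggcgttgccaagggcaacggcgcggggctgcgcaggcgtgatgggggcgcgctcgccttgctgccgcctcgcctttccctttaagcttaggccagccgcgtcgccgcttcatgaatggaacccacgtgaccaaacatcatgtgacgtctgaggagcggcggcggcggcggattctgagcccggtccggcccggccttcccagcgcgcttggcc
Srxn1: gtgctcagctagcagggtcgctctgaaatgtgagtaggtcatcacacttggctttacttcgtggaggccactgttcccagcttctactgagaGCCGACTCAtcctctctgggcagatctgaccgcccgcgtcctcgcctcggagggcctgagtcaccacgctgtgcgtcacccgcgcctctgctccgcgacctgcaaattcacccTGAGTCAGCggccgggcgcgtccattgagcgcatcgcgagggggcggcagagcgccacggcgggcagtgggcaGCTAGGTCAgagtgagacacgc
Gclm: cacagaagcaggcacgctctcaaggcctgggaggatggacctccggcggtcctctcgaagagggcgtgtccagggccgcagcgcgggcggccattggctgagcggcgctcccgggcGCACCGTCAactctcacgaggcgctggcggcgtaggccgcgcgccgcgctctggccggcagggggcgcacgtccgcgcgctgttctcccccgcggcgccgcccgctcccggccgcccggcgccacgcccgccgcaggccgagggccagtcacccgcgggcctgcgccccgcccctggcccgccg
Mafg held 1 match to TGACNNNGC on the reverse strand, beginning at position -222 relative to the start. Gclm held 1 of the same form on the reverse strand at -134. Srxn1 held 1 of that form on the reverse strand at 28, and matches to TGAGNNNGC at -158 on the reverse strand and at -45 on the forward strand. Of all 32841 promoter windows of this length, 12.4% held TGACNNNGC, 17.6% held TGAGNNNGC and 27.8% held either, so a match is common and describes the letters only.

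Metabolic genes lay on the other side of 0. Of 36 measured genes of fatty acid uptake and oxidation, 12 fell in alpha-MHC-NOS3 (all genes: 5.36%) and 26 in wild-type hearts (all genes: 17.6%) and none rose. The median TAC difference was -0.38 in alpha-MHC-NOS3 and -0.64 in wild-type hearts, and the median difference of differences was 0.26, with 31 above 0 and 5 below, against 61.3% above 0 among all genes. Hadh, which catalyses the third step of beta-oxidation, had 4.59, 4.84, 4.81 and 4.69 in alpha-MHC-NOS3 TAC and 5.38, 4.95, 5.49 and 5.25 in alpha-MHC-NOS3 control-intact hearts, against 4.77, 4.82, 4.71 and 4.48 in wild-type TAC and 5.50, 5.72, 5.64 and 5.74 in wild-type control-intact hearts. The TAC groups overlapped and the wild-type intact arrays were the highest. Hadh fell by 0.54 in alpha-MHC-NOS3 (limma adjusted p = 0.0122) and by 0.95 in wild-type hearts (adjusted p = 0.00024), and gave 0.42 ± 0.166 (SE, adjusted p = 0.664). The highest member was Ucp3, a mitochondrial uncoupling protein, at 0.57, and the lowest was Bdh1, a ketone body enzyme, at -2.94 with a standard error of 2.8.

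Of 58 oxidative phosphorylation genes, 57 were above 0, though by small amounts. The median was 0.19 against 0.07 over all genes, and 3 members passed an unadjusted p of 0.05, all above 0, against 5.44% of all genes. With TAC, 4 fell and 1 rose in alpha-MHC-NOS3 (all genes: 5.36% and 6.48%) and 34 fell in wild-type hearts (all genes: 17.6%). The median differences were -0.17 in alpha-MHC-NOS3 and -0.33 in wild-type hearts. Sdhd, a membrane anchor subunit of succinate dehydrogenase, measured 6.38, 6.48, 6.41 and 6.54 in alpha-MHC-NOS3 TAC and 6.52, 6.37, 6.55 and 6.60 in alpha-MHC-NOS3 control-intact hearts, against 6.33, 6.45, 6.39 and 6.03 in wild-type TAC and 6.75, 6.74, 6.67 and 6.83 in wild-type control-intact hearts. The wild-type intact arrays lay above all others, and the value was 0.39 ± 0.131 (SE, limma adjusted p = 0.652). Sdhc, the other anchor, gave 0.35 and Ndufab1, a subunit of complex I, 0.34. By array the list's median relative to the wild-type intact mean was -0.49, -0.17, -0.55 and -0.24 in alpha-MHC-NOS3 TAC and -0.29, -0.38, -0.07 and -0.17 in alpha-MHC-NOS3 control-intact hearts, against -0.32, -0.25, -0.29 and -0.49 in wild-type TAC and -0.11, 0.00, -0.03 and 0.13 in wild-type control-intact hearts. The genotype difference was -0.04 in TAC and -0.22 in intact hearts, so the gap lay mainly in the intact hearts.

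The 28 genes of pyruvate oxidation and the tricarboxylic acid cycle were all above 0 with a median of 0.17. Of these, 2 fell in alpha-MHC-NOS3 (all genes: 5.36%) and 18 in wild-type hearts (all genes: 17.6%). Idh3a, a catalytic subunit of isocitrate dehydrogenase, gave 0.43 ± 0.155 (SE, limma adjusted p = 0.652). Scaling mattered for these lists. With quantile normalization the medians were 0.06 for oxidative phosphorylation, with 50 of 58 above 0, and 0.07 for the cycle, with 24 of 28, against 0.05 for all genes. With the authors' deposited values they were 0.07 and 0.07, with 45 and 21 genes above 0, against 0.03 for all genes, so both medians then stood close to that of all genes. The median of the fatty acid list was 0.16 with quantile normalization and 0.15 with the authors' values, below its 0.26 above. In males the medians were -0.12 for fatty acid genes, -0.10 for oxidative phosphorylation and -0.14 for the cycle, and in females 0.64, 0.49 and 0.53. Over all genes it was -0.02 in males and 0.16 in females. Of 22 metabolic transcription regulators, 1 fell in alpha-MHC-NOS3 and 12 in wild-type hearts, and 18 were above 0 with a median of 0.16. Rxrg, a retinoid X receptor, measured 4.15, 4.46, 4.28 and 4.25 in alpha-MHC-NOS3 TAC and 4.85, 4.35, 4.76 and 4.62 in alpha-MHC-NOS3 control-intact hearts, against 3.56, 4.39, 4.08 and 3.79 in wild-type TAC and 5.03, 4.99, 5.08 and 4.88 in wild-type control-intact hearts. It fell by 1.04 in wild-type hearts (limma adjusted p = 0.000751), differed by -0.36 in alpha-MHC-NOS3 hearts (adjusted p = 0.161) and gave 0.68 ± 0.225 (SE, adjusted p = 0.652).

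**Figure D5:**
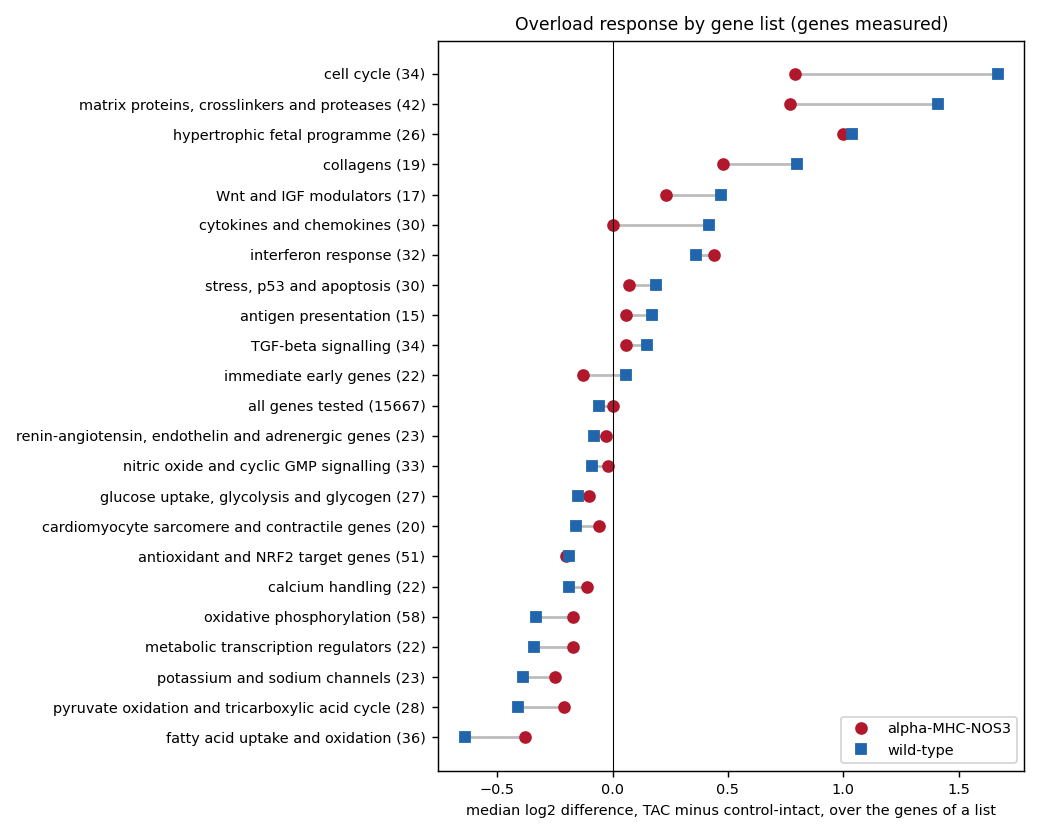
Median TAC minus control-intact difference over the measured genes of each list (horizontal axis, log2; number of genes in brackets), with circles for alpha-MHC-NOS3 and squares for wild-type hearts. The circle lies nearer 0 than the square for matrix genes (0.77 in alpha-MHC-NOS3, 1.41 in wild-type), cell cycle (0.79 and 1.67) and fatty acid genes (-0.38 and -0.64), and close to it for the fetal programme (1.00 and 1.04).

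Of 23 potassium and sodium channel genes, 4 fell in alpha-MHC-NOS3 (all genes: 5.36%) and 10 in wild-type hearts (all genes: 17.6%), and none rose. Of the 23, 18 were above 0 with a median difference of differences of 0.24, which was 0.12 without wild-type TAC replicate 4. It was -0.06 in males and 0.47 in females. Kcnj2, an inward rectifier that sets the resting potential, measured -2.03, -1.12, -1.95 and -1.50 in alpha-MHC-NOS3 TAC and -1.21, -1.58, -1.46 and -1.63 in alpha-MHC-NOS3 control-intact hearts, against -2.40, -0.98, -2.11 and -2.52 in wild-type TAC and -0.15, -0.84, -0.86 and -1.30 in wild-type control-intact hearts. It gave 1.04 ± 0.465 (SE, limma adjusted p = 0.665), and the calcium-activated channel Kcnn2 gave 0.77 ± 0.318 (SE, adjusted p = 0.664). The 23 renin-angiotensin, endothelin and adrenergic genes had a median of 0.01, with 13 above 0 and 10 below, and that sign turned with quantile normalization. Among them, Agtr1a, the angiotensin II type 1a receptor, measured 1.80, 1.93, 2.40 and 1.93 in alpha-MHC-NOS3 TAC and 2.26, 1.22, 2.50 and 2.13 in alpha-MHC-NOS3 control-intact hearts. In wild-type hearts it measured 1.99, 1.68, 2.33 and 0.72 with TAC and 3.04, 2.68, 2.95 and 2.38 when intact, so that the wild-type intact arrays were nearly all above the rest. Agtr1a fell by 1.09 in wild-type hearts (limma adjusted p = 0.0065), differed by -0.01 in alpha-MHC-NOS3 hearts (adjusted p = 0.979) and gave 1.07 ± 0.349 (SE, adjusted p = 0.652). Calcium handling genes had a median of 0.11 with 18 of 22 above 0. Of the 22, 2 rose and 2 fell in alpha-MHC-NOS3 (all genes: 6.48% and 5.36%). In wild-type hearts 2 rose and 7 fell (all genes: 10.9% and 17.6%).

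Single genes of stress and early response had values on both sides of 0. Nr4a1, an orphan nuclear receptor induced early after stimulation, measured 3.12, 3.15, 2.52 and 3.28 in alpha-MHC-NOS3 TAC and 3.09, 2.93, 3.20 and 3.36 in alpha-MHC-NOS3 control-intact hearts, against 4.48, 4.06, 3.39 and 3.53 in wild-type TAC and 5.68, 5.20, 5.10 and 4.96 in wild-type control-intact hearts. All transgenic arrays lay below all wild-type arrays. It was lower in alpha-MHC-NOS3 by 2.09 among intact hearts, a difference of -2.09 (limma adjusted p = 0.00208), fell by 1.37 with TAC in wild-type hearts (adjusted p = 0.00167) and gave 1.24 ± 0.343 (SE, adjusted p = 0.652). Gadd45a, a growth arrest and DNA damage gene, measured 1.85, 1.43, 2.55 and 1.84 in alpha-MHC-NOS3 TAC and 1.80, 1.61, 2.15 and 1.95 in alpha-MHC-NOS3 control-intact hearts, against 1.05, 0.76, 1.69 and 0.63 in wild-type TAC and 2.05, 1.78, 2.04 and 1.85 in wild-type control-intact hearts. Here the wild-type TAC arrays were lower than the intact wild-type arrays, the transgenic arrays were not ordered by load, and the value was 0.94 ± 0.262 (SE, limma adjusted p = 0.652). Bcl2, which restrains apoptosis, had 2.00, 1.61, 2.07 and 2.33 in alpha-MHC-NOS3 TAC and 0.18, 0.16, 0.17 and 0.15 in alpha-MHC-NOS3 control-intact hearts, against 1.52, 1.18, 1.63 and 1.47 in wild-type TAC and 0.25, -0.01, 0.15 and 0.09 in wild-type control-intact hearts. It rose by 1.83 in alpha-MHC-NOS3 (limma adjusted p = 1.47e-05) and by 1.33 in wild-type hearts (adjusted p = 6.7e-05), one of the genes whose step was larger in the transgenic hearts, with a difference of differences of 0.50 ± 0.178 (SE, adjusted p = 0.652). Myc gave -0.91 ± 0.342 (SE, adjusted p = 0.652), with -0.26 in males and -1.56 in females. The medians were -0.17 for 22 immediate early genes and -0.06 for 30 genes of stress, p53 and apoptosis. Immediate early genes had 3 below 0 and 1 above at an unadjusted limma p of 0.05, and the stress genes 1 below and 4 above. The shares over all genes were 1.99% below and 5.44% above.

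Genes of nitric oxide and cyclic GMP signalling, the pathway in which the transgene acts, had as a list a median difference of differences near the background. Of 33 measured, 4 rose and 2 fell with TAC in alpha-MHC-NOS3 (all genes: 6.48% and 5.36%). In wild-type hearts 9 rose and 6 fell (all genes: 10.9% and 17.6%). The median difference of differences of the list was 0.12, against 0.07 over all genes, with 14 below 0 and 19 above. At an unadjusted p of 0.05 only Nos3 was below 0 and only Pts, an enzyme of the synthesis of the NOS cofactor tetrahydrobiopterin, above. Pts measured 3.25, 3.21, 3.17 and 3.25 in alpha-MHC-NOS3 TAC and 3.33, 3.28, 3.49 and 3.54 in alpha-MHC-NOS3 control-intact hearts, against 2.85, 3.17, 2.89 and 2.75 in wild-type TAC and 3.18, 3.44, 3.50 and 3.62 in wild-type control-intact hearts. It fell by 0.52 in wild-type hearts (limma adjusted p = 0.00357), differed by -0.19 in alpha-MHC-NOS3 hearts (adjusted p = 0.269) and gave 0.33 ± 0.149 (SE, adjusted p = 0.667). TGF-beta signalling genes had a median of -0.10 over 34 genes, with 3 that rose and 1 that fell in alpha-MHC-NOS3 and 11 that rose and 4 that fell in wild-type hearts. Among all genes 6.48% rose and 5.36% fell in alpha-MHC-NOS3, and 10.9% rose and 17.6% fell in wild-type hearts. The TGF-beta median was -0.03 without wild-type TAC replicate 4 and -0.23 without wild-type TAC replicate 2.

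The difference of differences was also set between the sexes. The test of males minus females called 0 of 15666 genes (0%), with 898 (5.73%) at an unadjusted p of 0.05 and a smallest limma adjusted p of 0.813. Without wild-type control-intact replicate 4 it called 106 genes and without alpha-MHC-NOS3 control-intact replicate 4 it called 50. With 2 animals of each sex per group, the split between male and female medians above is given as a description of these 16 hearts. Wild-type TAC replicates 2 and 4, both females, differed widely from each other, at 0.89 and 2.48 for the cell cycle median and 0.51 and 1.67 for the matrix median.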

How the data were processed

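Left ventricular RNA was hybridised to 16 one-colour Agilent arrays, 4 per group, with groups taken from the labels. The deposited files hold each spot's intensity as the scanner software, Agilent Feature Extraction 9.5.1.1, wrote it after background subtraction (per the file headers; the submitters' processing notes name the tool), with flags for background and saturation. A second table from the authors gives log2 values whose normalization no label or header states, and it served as an alternative. Its scale is log2 intensity, with no centring of genes and the direction of the arrays themselves.

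Here the log2 signal of each array was taken relative to its 75th percentile, probes well above background on at least 4 arrays were kept, and the brightest probe stood for each of 15667 genes. limma 3.58.1 in R 4.3.3 was fitted to all arrays with group means and sex, with Benjamini-Hochberg adjustment over all genes. The fit was run on simulated arrays with a known difference of differences. Their noise was independent between genes and held no sex or atrial difference, so that run does not bear on the list medians. Genes named are the established load markers, the 10 per direction with the smallest p, up to 4 per list with the smallest p, and the largest mean TAC effects, of which some are not reported here. Other list members are given as examples chosen after their values were seen. The members and lists were chosen with earlier results of these data known. Of the 171 genes the rule named, 68 had another probe and 13 of these had one of opposite sign. Signals in the flags and in the log2 table served the alternatives in the closing section. Promoter sequences are from RefSeq, GRCm38.p6, for 3 genes matched by symbol. Figures were drawn with matplotlib 3.10.9.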

Additional observations from a re-analysis of the deposited data

Results flagged for a closer look

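Within the groups of 4 arrays, the highest or lowest array was set against the others for the list medians and described genes. Of the 168 groups examined, 4 held an array far from the rest, and chance alone flags about 1 in 20. The median of the antioxidant and NRF2 target genes was -0.20 in wild-type TAC replicate 2, against -0.15 to -0.14 in the other arrays of that group. The median of the antigen presentation genes was -0.11 in the same array, against 0.30 to 0.34. The median of the interferon response genes was 0.19 in alpha-MHC-NOS3 control-intact replicate 1, against 0.46 in the others. The same median was -0.14 in wild-type control-intact replicate 4, against 0.05 to 0.08 in the others. All are log2 values relative to the wild-type control-intact mean.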

How the results depend on the processing

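No difference of differences was called under any alternative that kept all arrays, where the smallest adjusted p ranged up from 0.0579 (array weights), or without the 3 arrays of most unusual detection (0.921). Leaving out single arrays gave 0 to 1 calls, the 1 being Ier5. TAC calls in alpha-MHC-NOS3 hearts were 1033 with normexp background, 754 with no filter, 2847 with array weights, 757 with scan day as a block, 401 without the 3 arrays and 971 to 2262 without single arrays. In wild-type hearts they were 2958 with normexp, 2881 with no filter, 2697 with scan day and 2913 to 5026 without single arrays. For the mean TAC effect they were 3237 with scan day and 5071 to 6166 without single arrays. The sex difference had 1 call with normexp and 0 to 106 without single arrays. With normexp, the median TAC differences were 0.37 in wild-type hearts over the genes called higher, 0.80 in alpha-MHC-NOS3 and 1.03 in wild-type over the genes higher by over 2-fold, and -0.81 in alpha-MHC-NOS3 and -0.85 in wild-type over those lower by over 2-fold. The sign turned for Myh6 (0.05 without the 3 arrays, -0.17 to 0.02 without single arrays), Acta1 (-0.11 and -0.09 to 0.40), Atp2a2 (-0.03 with quantile normalization, -0.02 with the authors' values, -0.02 without the 3 arrays, -0.02 to 0.25 without single arrays), and with normexp for Clec12b (-0.08) and 2810039B14Rik (-0.02). The cause was not tested. Arrays of the genotypes could be matched by slide and sex, as in the differences within slides above, on which no test was run. Slide could also be taken as a block in limma. With it 0 genes were called, as a fixed block (smallest adjusted p 0.11, 1343 at an unadjusted p of 0.05) or a random block (0.157, 1250).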
